A study of Mus musculus with 10 samples.

Results

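The genes described here are 10 markers of the muscular and supporting cells of vessel walls, 6 of smooth muscle contraction (Myh11, Mylk, Tagln, Cnn1, Lmod1 and Smtn) and 4 of pericytes and other mural cells (Rgs5, Pdgfrb, Notch3 and Cspg4). They were chosen by name, and all 10 were found among the 54532 genes of the deposited gene table, each on a single row. RNA had been sequenced from the peri-pulmonary vein part of the mouse left atrium, which the submitters dissected with a stub of venous tissue still attached, from 4 control animals, named Ctrl, and from 6 animals, named CKO, in which Tbx5, a T-box transcription factor gene, had been deleted. The genotypes were R26creERT2/creERT2; Tbx5+/+ for Ctrl and R26creERT2/creERT2; Tbx5 flox/flox for CKO, so that every animal carried a tamoxifen-inducible Cre recombinase on both Rosa26 alleles and every animal received tamoxifen. Injections ran over 3 days in animals of 6 weeks, and atria were taken 1 week later, at 7 weeks. The Rosa26 promoter acts in nearly all cell types, so recombination could also occur outside atrial muscle, where it was not measured separately.

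Smooth muscle shortens when myosin light chain kinase, switched on by calcium and calmodulin, phosphorylates the light chains of smooth muscle myosin, and thin filament proteins of the calponin, transgelin, smoothelin and leiomodin families accompany that machinery. Many of these genes are driven by serum response factor with its coactivator myocardin, through a DNA element called the CArG box. Pericytes sit on capillaries, share receptors with smooth muscle cells and depend on platelet-derived growth factor from endothelium and on Notch signals for recruitment and maintenance. Pulmonary veins hold a smooth muscle media outside which a sleeve of atrial heart muscle lies, whereas in the appendage smooth muscle belongs to coronary vessels.

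Summed counts per library lay between 8602794 and 10040808. The deletion was visible in the targeted transcript: coverage of Tbx5 exon 3 (chr5:119838696-119838790 on GRCm38), relative to the median of 9 exons of the same transcript, was 1.20 ± 0.356 (SD, n = 4) in Ctrl and 0.452 ± 0.174 (n = 6) in CKO, with no overlap, although the Tbx5 count as a whole averaged 134 ± 31.6 CPM (SD, n = 4) for Ctrl animals against 268 ± 105 CPM (n = 6) after deletion (edgeR adjusted p = 0.101). CPM here means a count scaled to the TMM-adjusted size of its library. Markers of atrial cardiomyocytes were found in every library, with a summed 35509 to 52563 CPM over 9 genes. Among them Myl7 lay between 4322 and 7654 CPM in Ctrl and between 664 and 1177 CPM in CKO. Myl4, Nppa and Sln also lay lower in CKO without overlap. Tnnt2 lay higher in CKO, at 4405 to 6146 CPM against 3009 to 3405 CPM in Ctrl, and Myh6, Actc1, Tnni3 and Ryr2 overlapped. Airway epithelium markers, 11 of 12 of them found and none at 0 in all libraries, summed to 4220 CPM in Ctrl 3 and 6951 CPM in CKO 4, against 232 CPM in Ctrl 1 and 0.735 to 36.3 CPM in the rest. Markers of ventricular cardiomyocytes summed to 70.2 to 181 CPM in Ctrl and 406 to 806 CPM in CKO. Those of skeletal muscle, with Myh2 and Myh1 at 0 throughout, summed to 529 to 851 and 1011 to 1526 CPM. Neither of these sums overlapped between groups. Of their single genes, Myl3 ran from 34.9 to 78.2 CPM in Ctrl and from 295 to 728 CPM in CKO. Ckm ran from 523 to 837 and from 937 to 1355 CPM, and Acta1 from 3.71 to 4.98 and from 46.8 to 165 CPM. Myl2, Myh7, Hey2, Tnnt3 and Actn3 overlapped between groups. Groups without overlap were found in 5.72% of all tested genes. The sums of Ctrl and CKO were 446 to 822 and 795 to 1443 CPM for macrophages, 950.1 to 1261 and 1237 to 1409 CPM for endothelium, and 2860 to 4922 and 4525 to 7265 CPM for fibroblasts, with overlap. The part of these lists in the results below was not tested. In whole tissue, fewer cells of a type and less RNA per cell cannot be told apart.

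No difference between CKO and Ctrl was detected for any of the 10 genes. By edgeR's quasi-likelihood test with Benjamini-Hochberg adjustment over all 17752 tested genes, 0 of 10 passed an adjusted p of 0.05, where 2.80% of all tested genes did. At an unadjusted p of 0.05, 0 of 10 passed against 17.0% of tested genes, and DESeq2 also called 0. The ranges of Ctrl and CKO overlapped for each of the 10 genes, while 5.72% of tested genes had groups without overlap. 6 fold changes were above 0 and 4 below, with a median log2 fold change of 0.03 beside -0.03 over all tested genes. A missed threshold does not show that levels were equal, and the intervals given with each gene below state how large a difference these libraries allow.

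**Figure D1:**
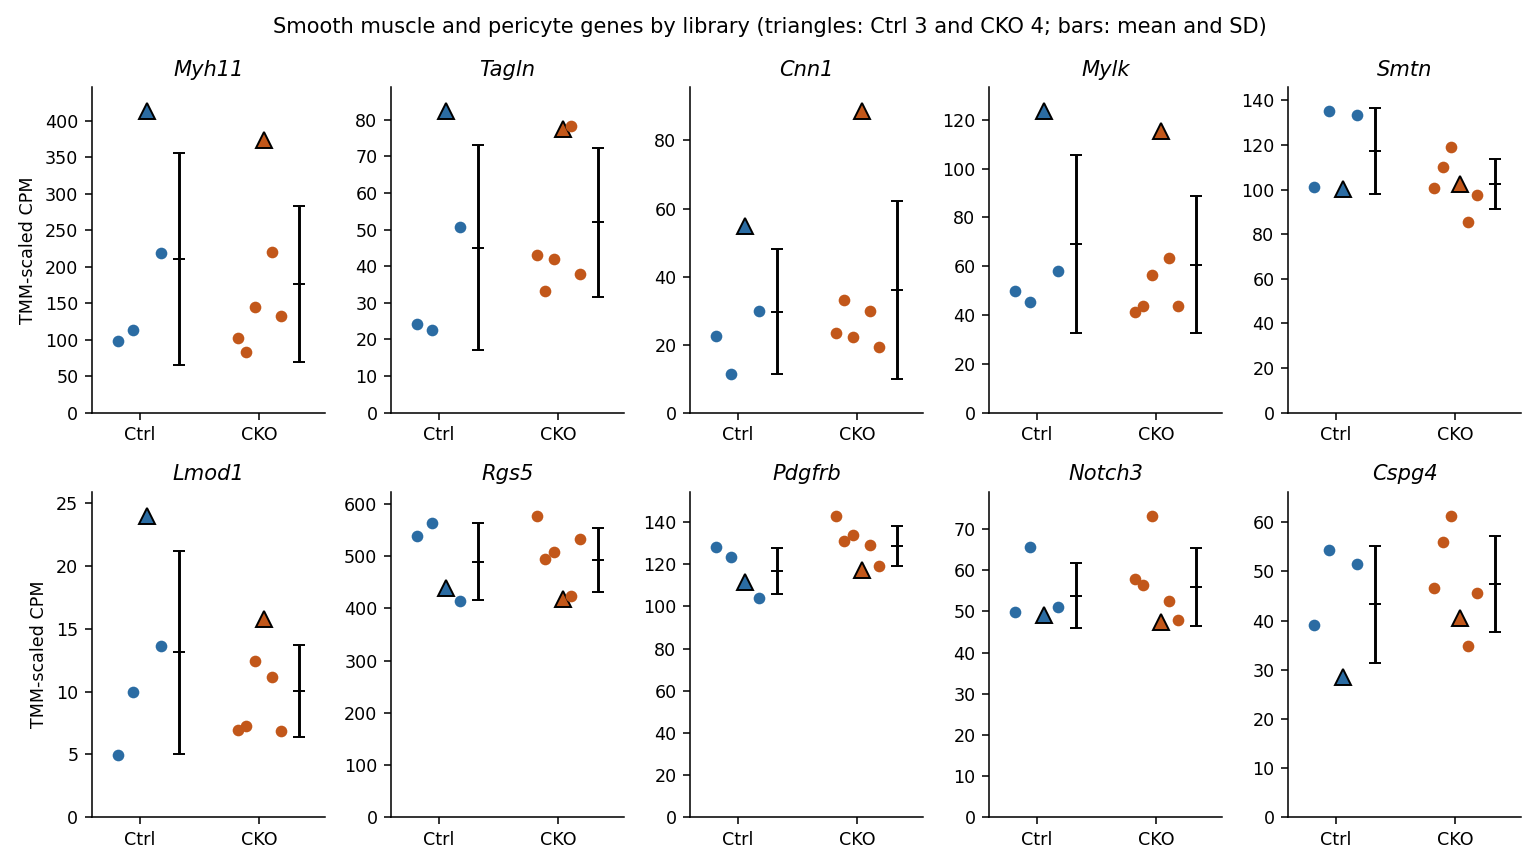
TMM-scaled CPM of each of the 10 genes (y axis, from 0) in the 4 Ctrl (blue) and 6 CKO (orange) libraries; triangles mark Ctrl 3 and CKO 4, and black bars give mean and SD. The groups overlap in every panel, and the triangles are the top points for Myh11, Cnn1, Mylk and Lmod1 while they lie within or at the low end of the points for Rgs5, Pdgfrb and Notch3.

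Myh11, the heavy chain of smooth muscle myosin (ENSMUSG00000018830, chr16:14194535-14291372, minus strand), stood at 97.6, 113, 413 and 218 CPM in Ctrl 1 to 4. In CKO it ran from 83.0 CPM through a median of 139 CPM to 373 CPM. Ctrl 3 and CKO 4 were the high libraries of their groups, and the rest lay between 83.0 and 221 CPM. The means were 211 ± 145 CPM (SD, n = 4) and 176 ± 107 CPM (n = 6), a log2 fold change of -0.26 with a standard error of 0.48 and a 95% interval from -1.31 to 0.80 (edgeR adjusted p = 0.821). Mylk, whose product phosphorylates the myosin light chain (ENSMUSG00000022836, chr16:34745210-35002420), was likewise highest in Ctrl 3 and CKO 4. It stood at 49.9, 45.6, 123 and 58.0 CPM in Ctrl 1 to 4, and in CKO ran from 41.1 CPM through a median of 50.2 CPM to 115 CPM in CKO 4. Apart from these 2 libraries its values spanned only 41.1 to 63.3 CPM. Its log2 fold change was -0.19, with an interval from -0.96 to 0.58 (edgeR adjusted p = 0.820).

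Among the thin filament genes, Tagln, which encodes the actin-binding transgelin or SM22 alpha (ENSMUSG00000032085, chr9:45929619-45936058, minus strand), stood at 24.3, 22.6, 82.3 and 50.8 CPM in Ctrl 1 to 4. The CKO libraries ran from 33.2 CPM through a median of 42.6 CPM to 78.3 CPM in CKO 5, with CKO 4 next at 77.5 CPM. Every CKO library thus lay above Ctrl 1 and Ctrl 2 and below Ctrl 3. Cnn1, which encodes the actin-binding calponin of differentiated smooth muscle (ENSMUSG00000001349, chr9:22099216-22109630), stood at 22.5, 11.4, 54.9 and 30.01 CPM in Ctrl 1 to 4. In CKO it ran from 19.2 CPM through 26.6 CPM to 88.5 CPM in CKO 4, where the next highest library had 33.2 CPM. Its log2 fold change was 0.28, with an interval from -0.80 to 1.37 (edgeR adjusted p = 0.808), and that of Tagln was 0.21, from -0.64 to 1.06 (adjusted p = 0.821).

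Lmod1, an actin filament nucleator of smooth muscle (ENSMUSG00000048096, chr1:135324807-135368065), was the least abundant of the 10 at 4.96, 9.94, 24.0 and 13.6 CPM in Ctrl 1 to 4. Its CKO values ran from 6.89 CPM through 9.19 CPM to 15.8 CPM in CKO 4. Its log2 fold change was -0.38, with an interval from -1.24 to 0.47 (edgeR adjusted p = 0.652). Smtn, which encodes the cytoskeletal protein smoothelin (ENSMUSG00000020439, chr11:3517523-3540612, minus strand), did not share this pattern: it stood at 101, 135, 100.1 and 133 CPM in Ctrl 1 to 4, so that Ctrl 3 was the lowest control. In CKO it ran from 85.7 CPM through 101 CPM to 119 CPM, with 102 CPM in CKO 4. Its log2 fold change was -0.19, with the narrower interval from -0.46 to 0.08 (edgeR adjusted p = 0.453).

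The 5 contractile genes other than Smtn varied far more between animals of a group than the pericyte genes did. The within-group SD on the log2 scale was 0.85 for Myh11, 0.85 for Cnn1, 0.69 for Lmod1, 0.69 for Tagln and 0.60 for Mylk, beside a median of 0.31 over all tested genes. It was 0.35 for Cspg4, 0.22 for Notch3, 0.20 for Rgs5, 0.19 for Smtn and 0.12 for Pdgfrb. The values of the 5 genes lay between the 83.9th and 92.4th percentile of tested genes. For Myh11, Cnn1, Mylk and Lmod1, Ctrl 3 was the highest control and CKO 4 the highest CKO library, an arrangement found in 6.05% of tested genes, and Tagln had Ctrl 3 highest and CKO 4 second. Ctrl 3 and CKO 4 are the libraries with the highest airway marker sums, and the part of airway tissue, whose walls hold smooth muscle too, in these levels was not tested. For Myh11, Ctrl 4 had 218 CPM and CKO 5 had 221 CPM, with airway sums of 12.0 and 36.3 CPM. Ctrl 1 had 97.6 CPM of Myh11 with an airway sum of 232 CPM. Xist, the RNA of the inactive X chromosome, was low in Ctrl 3, Ctrl 4, CKO 4, CKO 5 and CKO 6. It was high in the other libraries. Myh11 ran from 133 to 413 CPM with low Xist and from 83.0 to 144 CPM with high Xist. Tagln ran from 38.0 to 82.3 CPM and from 22.6 to 43.1 CPM. The 2 sets overlapped for each of the 5 genes, and the part of this split in their spread was not tested. Outside Ctrl 3 and CKO 4, Mylk spanned 41.1 to 63.3 CPM and Cnn1 11.4 to 33.2 CPM. In the same libraries Lmod1 spanned 4.96 to 13.6 CPM and Tagln 22.6 to 78.3 CPM. Without Ctrl 3 and CKO 4, the means of Myh11 were 143 ± 65.6 CPM (n = 3) for Ctrl and 137 ± 52.7 CPM (n = 5) for CKO.

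**Figure D2:**
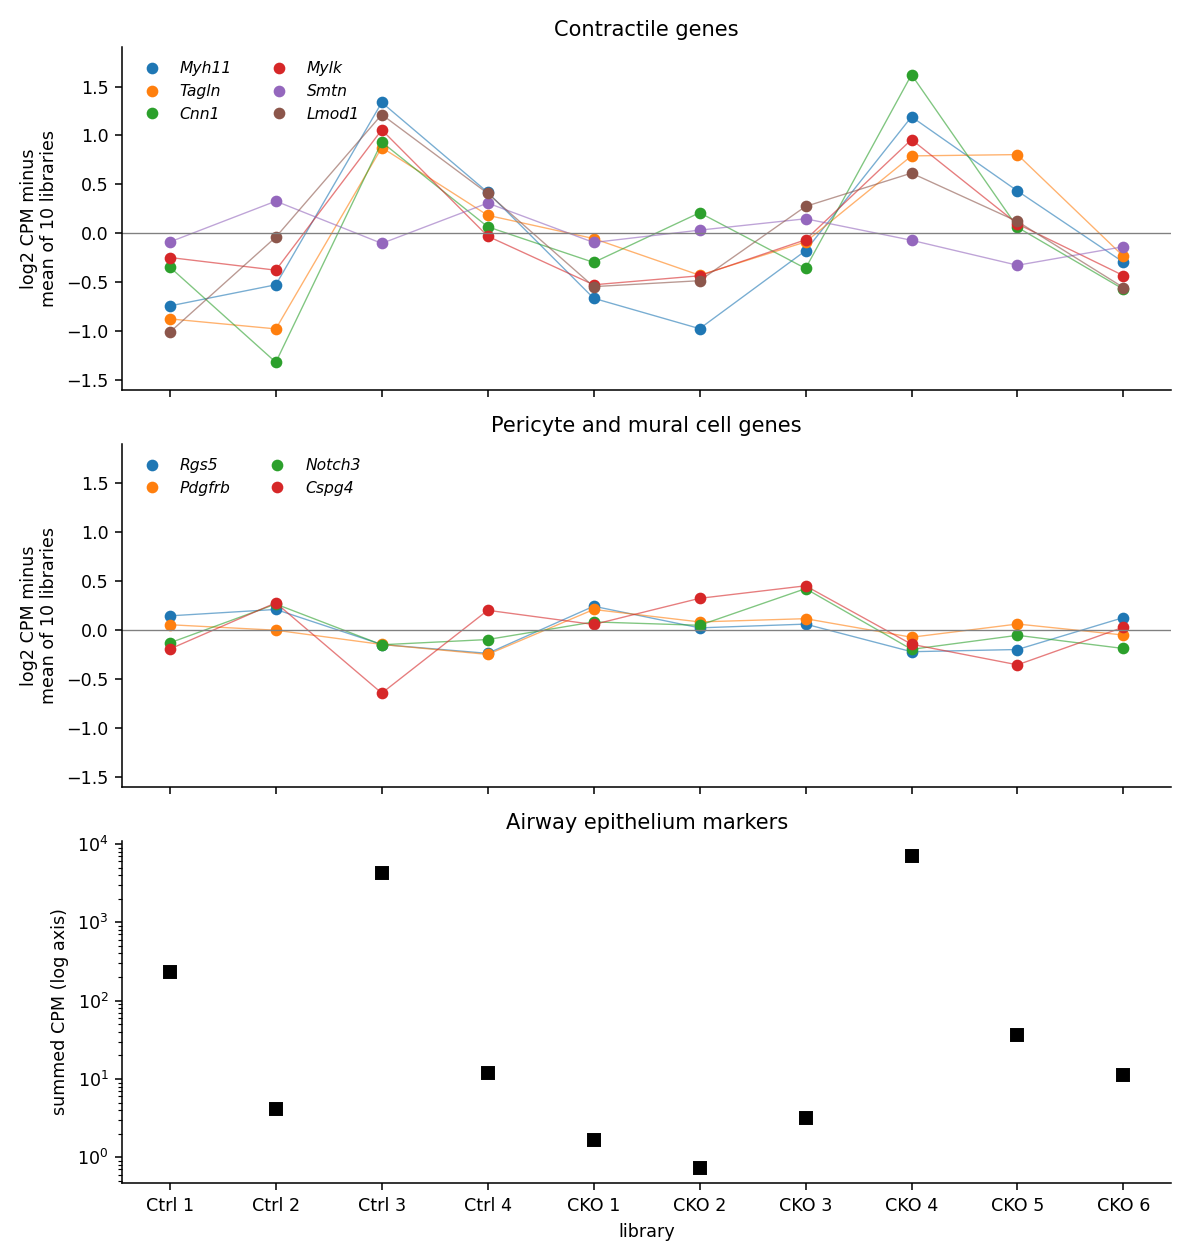
Log2 CPM of each gene minus its mean over the 10 libraries, for the 6 contractile genes (top) and the 4 pericyte and mural cell genes (middle), with the summed CPM of the airway epithelium markers on a log axis (bottom); thin lines join the values of a gene and carry no order. Ctrl 3 and CKO 4 hold the peaks of Myh11, Cnn1, Mylk and Lmod1 and the 2 highest airway sums, while the middle panel stays between -0.65 and 0.45.

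The genes whose profile over the 10 libraries came closest to the mean of the 6 contractile genes, by the root mean square difference of centred log2 CPM, were Gdf10 (0.145), Glipr1 (0.196), Emb (0.219), Pafah1b3 (0.228), Rgs14 (0.230) and Orai2 (0.234). Mylk itself differed from that mean by 0.161 and Smtn by 0.574. Gdf10 encodes a secreted protein of the bone morphogenetic protein family, and Orai2 a subunit of store-operated calcium channels. Closest to the mean of the 4 mural genes were Kifc3 (0.0655), Cpped1, Kank2, Grsf1, Lmf1 and Ube2r2, with Ube2r2 at 0.0774 the farthest of these. These likenesses describe 10 libraries that share the same 2 high ones. The mural profile is nearly flat, so many stable genes come close to it.

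Rgs5, a regulator of G protein signalling that is a standard pericyte marker (ENSMUSG00000026678, chr1:169655501-169695813), was the most abundant of the 10 genes by CPM. It stood at 539, 564, 440 and 413 CPM in Ctrl 1 to 4, and in CKO ran from 418 CPM through 502 CPM to 577 CPM. CKO 4 was its lowest CKO library and Ctrl 3 its second lowest control, whereas both were the highest of their groups for Myh11, Cnn1, Mylk and Lmod1. The means were 489 ± 73.7 and 493 ± 61.9 CPM, and the log2 fold change was 0.01, with an interval from -0.28 to 0.30 (edgeR adjusted p = 0.979). In fold terms this interval runs from 0.826 to 1.23.

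Pdgfrb encodes the receptor through which endothelial platelet-derived growth factor B recruits pericytes (ENSMUSG00000024620, chr18:61045150-61085061). It stood at 128, 123, 111 and 104 CPM in Ctrl 1 to 4, and in CKO ran from 117 CPM through 130 CPM to 143 CPM. It was the steadiest of the 10 genes, with a within-group SD of 0.12 on the log2 scale, at the 6.10th percentile of tested genes. Its log2 fold change was 0.14, with an interval from -0.06 to 0.34 (edgeR adjusted p = 0.462), which leaves room for a rise of up to 1.27-fold.

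Notch3, the Notch receptor of arterial smooth muscle and pericytes (ENSMUSG00000038146, chr17:32120820-32166880, minus strand), stood at 49.8, 65.6, 49.1 and 50.9 CPM in Ctrl 1 to 4. In CKO it ran from 47.5 CPM through 54.4 CPM to 73.1 CPM. Cspg4, which encodes the NG2 proteoglycan on the pericyte surface (ENSMUSG00000032911, chr9:56865033-56899870), stood at 39.1, 54.3, 28.5 and 51.5 CPM in Ctrl 1 to 4, with Ctrl 3 lowest. Its CKO values ran from 34.9 CPM through 46.1 CPM to 61.3 CPM. The log2 fold changes were 0.05 for Notch3, with an interval from -0.25 to 0.36 (edgeR adjusted p = 0.877), and 0.13 for Cspg4, from -0.31 to 0.57 (adjusted p = 0.776).

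Leaving out Ctrl 3 and CKO 4, the 2 libraries with the highest airway marker sums, again called 0 of 10 genes, where 2.85% of 17833 tested genes passed edgeR's test. The log2 fold change of Myh11 went to -0.04, that of Mylk to -0.02 and that of Lmod1 to -0.07. That of Cnn1 stayed at 0.29, and that of Tagln came to 0.55 with an interval from -0.21 to 1.31 (edgeR adjusted p = 0.367). Each of the 2 libraries alone could turn a direction: without Ctrl 3 the values were 0.31 for Myh11, 0.26 for Mylk and 0.10 for Lmod1, and without CKO 4 that of Cnn1 was -0.21. Libraries also fell into the 2 sets by Xist given above. Among the 5 with high Xist (Ctrl 1, Ctrl 2, CKO 1, CKO 2 and CKO 3), Tagln had a log2 fold change of 0.75 (edgeR adjusted p = 0.0736). The only controls of that set, Ctrl 1 and Ctrl 2, had 24.3 and 22.6 CPM of Tagln. Among the 5 with low Xist, which include Ctrl 3 and CKO 4, the log2 fold change was -0.03 (edgeR adjusted p = 0.996). The difference between these sets was not tested.

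**Figure D3:**
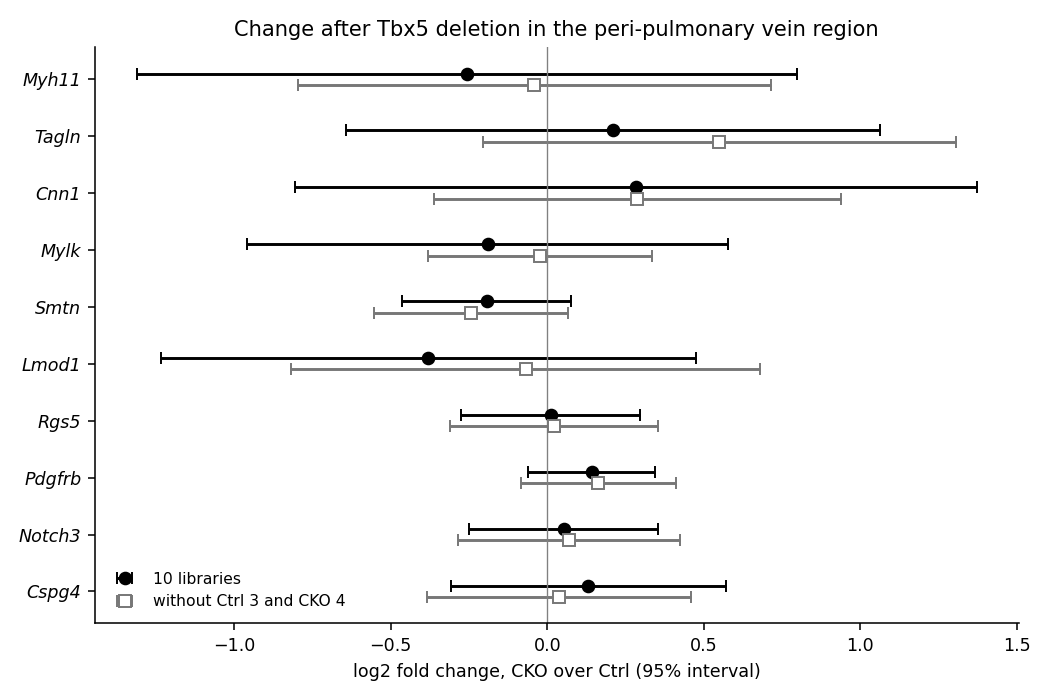
Log2 fold change of CKO over Ctrl with its 95% interval from edgeR (x axis) for each gene, with all 10 libraries (filled circles) and without Ctrl 3 and CKO 4 (open squares). Every interval includes 0; those of Myh11, Tagln, Cnn1, Mylk and Lmod1 are the wide ones, and that of Pdgfrb, from -0.06 to 0.34, is narrow.

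Levels of different genes were set side by side in TPM, which divides by transcript length. Over the 10 libraries Rgs5 stood first at a mean of 236 TPM, in every library above Smtn at 124 TPM, and it held 38.8% of the TPM of the 10 genes. Myh11 at 60.7 TPM and Tagln at 60.3 TPM could not be ordered, since Myh11 was higher in 5 of 10 libraries. Pdgfrb followed at 44.5 TPM and Cnn1 at 34.1 TPM, with Pdgfrb higher in 8 libraries. Mylk at 20.5 TPM and Cspg4 at 17.1 TPM could not be ordered either, with Mylk higher in 4 of 10. Notch3 at 13.3 TPM exceeded Lmod1 at 5.54 TPM in 10 of 10 libraries. The pericyte marker Rgs5 was thus more abundant in TPM than any contractile gene of the set in each animal, while Pdgfrb, Notch3 and Cspg4 were not. Of Smtn TPM, 34.6% in Ctrl and 26.2% in CKO were assigned to Smtn-206, a 625-base transcript not annotated as protein-coding. Of Cspg4 TPM, 47.2% in Ctrl and 45.3% in CKO were assigned to a retained-intron transcript. The order without these transcripts was not tested. By CPM per kilobase of the main transcript, Cspg4 moved from rank 8 to 6, Cnn1 from 6 to 7 and Mylk from 7 to 8. Rgs5 stayed first and Smtn second.

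Splicing of Myh11 was looked at because smooth muscle myosin comes in forms that differ by small cassette exons. A 21-base exon (chr16:14248580-14248600, minus strand) adds a short insert to a loop near the nucleotide-binding pocket of the motor head, and it is held by the transcript ENSMUST00000231567 and not by ENSMUST00000230397. The sequences below show the junction in both transcripts, read 5′ to 3′ from the reference transcripts of GRCm38 (GENCODE vM21) with 30 bases on each side, with the exon in capitals.
Myh11 with the exon: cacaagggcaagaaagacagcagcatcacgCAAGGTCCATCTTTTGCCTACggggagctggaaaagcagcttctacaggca
Myh11 without the exon: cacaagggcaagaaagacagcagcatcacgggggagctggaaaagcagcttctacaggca
The transcript with the exon took 58.2%, 55.5%, 11.1% and 63.2% of the TPM of Myh11 in Ctrl 1 to 4. In the CKO libraries it took 0.130%, 0.251%, 0%, 16.2%, 21.6% and 0.0814%. Ctrl 3 lay inside the CKO range and the other 3 controls above it. The mean share was 47.0% ± 24.1 (n = 4) in Ctrl and 6.37% ± 9.84 (n = 6) in CKO, with an exact two-sided permutation p of 0.0143 and an adjusted p of 0.165 over 13 transcripts. With 210 relabellings and 13 transcripts, a single transcript cannot go below an adjusted p of 0.0619.

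Those shares come from StringTie's assignment of reads to whole transcripts, so the exon itself was examined, a comparison chosen after seeing the data. Coverage of the 21-base exon was 39.2%, 10.9%, 32.8% and 14.7% of the mean of its 2 flanking exons in Ctrl 1 to 4. The 6 CKO libraries, in the order of their numbers, had 4.67%, 6.35%, 0%, 34.8%, 15.6% and 21.2%. The ranges overlapped, with means of 24.4% ± 13.7 (n = 4) and 13.8% ± 12.9 (n = 6) and an exact permutation p of 0.243 (adjusted p = 0.329 over 2 exons). CKO 6, with 0.0814% by the transcript estimate, covered the exon at 21.2% of its flanks, and Ctrl 3, with the lowest transcript share of the controls, at 32.8%. The coverage behind these values was low, from 0 to 12.4 reads per base on the exon. The 39-base exon that distinguishes the tail forms of this myosin (chr16:14198050-14198088) was covered at 72.1% ± 25.3 of its neighbour in Ctrl and 56.9% ± 19.8 in CKO, with an exact permutation p of 0.329.

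**Figure D4:**
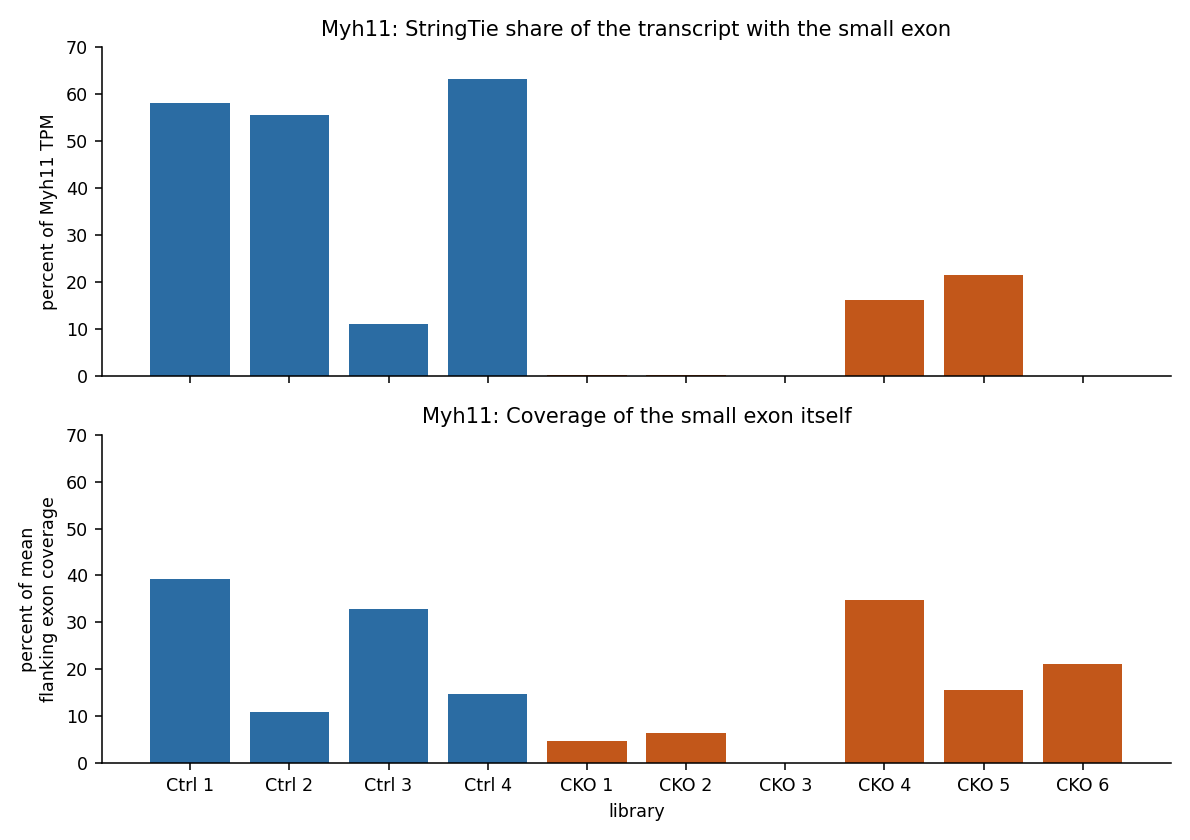
Share of Myh11 TPM given by StringTie to the transcript with the 21-base exon (top, percent) and coverage of that exon as a percent of the mean of its 2 flanking exons (bottom), in each Ctrl (blue) and CKO (orange) library. The top panel puts 3 controls above all CKO libraries, while in the bottom panel CKO 4 and CKO 6 stand above Ctrl 2 and Ctrl 4.

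Of the 13 transcripts of 5 genes that held at least 10% of their gene, 0 passed the adjusted test. Next to that transcript of Myh11, the smallest p-values belonged to Cnn1-201, with 58.3% ± 6.49 of Cnn1 in Ctrl and 69.5% ± 6.12 in CKO (exact permutation p = 0.0333, adjusted p = 0.165). Mylk-201, one of the long forms of the kinase gene, held 66.8% ± 10.2 and 76.6% ± 2.62 (exact permutation p = 0.0381, adjusted p = 0.165). For Smtn, the 7 exons shared with the short transcript Smtn-201 had 3.34 to 7.23 times the median coverage of the 9 exons upstream of it in every library. That excess was 5.92 ± 1.80 in Ctrl and 4.68 ± 1.01 in CKO (exact permutation p = 0.210). Short and long smoothelin transcripts come from separate promoters, the short one being the form of visceral smooth muscle and the long one that of vessels. The excess over the shared exons is counted in all Smtn values above. Those exons lie toward the 3′ end of the gene, a stretch that also holds Smtn-206. The parts of Smtn-206 and of uneven coverage along transcripts in the excess were not tested, so it is not a measure of the short form alone.

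The region comparison of the study set the peri-pulmonary vein against the left atrial appendage, and here only the authors' own fold changes were used for it. The contractile genes were much higher at the veins in the authors' deposited table: the fold was 32.2 for Cnn1, 23.9 for Myh11, 10.9 for Tagln, 6.79 for Lmod1 and 2.66 for Mylk, with a false discovery rate between 9.26e-22 and 1.92e-05. Among mural genes, the authors' deposited table gave Notch3 a fold of 1.72 (false discovery rate 0.00311). It gave Rgs5 1.01, Pdgfrb 1.15, Cspg4 1.11 and the contractile gene Smtn 0.880, none of them past 0.05, in the authors' deposited table. In all, 6 of 10 genes were called higher and 0 lower in the authors' deposited table, where 8.19% of its 13646 genes passed as higher and 4.06% passed in the other direction. Over the 10 genes the median log2 value in the authors' deposited table was 1.10, and over all its genes 0.00. The direction was read from the order of the regions in the table's column name, and its header does not say which genotypes entered. The appendage libraries belong to samples of another series, so region cannot be told apart from other differences between the 2 sets of samples. The part of Ctrl 3 and CKO 4, with the highest airway marker sums, in these folds was not tested.

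For the deletion of Tbx5 in the appendage, the authors' deposited table called 4 of the 10 genes higher. Tagln was 8.42-fold and Cnn1 7.15-fold higher in CKO there, with false discovery rates of 3.49e-17 and 0.000225 in the authors' deposited table. In the authors' deposited table Cspg4 was 2.04-fold higher (3.07e-08) and Pdgfrb 1.43-fold higher (0.00809). The other 6 genes were not called in the authors' deposited table, with log2 fold changes of -0.42 for Myh11, -0.29 for Rgs5, -0.19 for Smtn, -0.04 for Mylk, 0.23 for Notch3 and 0.30 for Lmod1. Beside these 4 of 10 higher and 0 lower, 16.8% of all genes in the authors' deposited table were called higher in appendage CKO and 17.9% lower. For CKO against Ctrl at the veins, the authors' deposited table called 0 of the 10, with 5.50% of all genes called. There the authors' deposited table gave log2 fold changes of 0.19 for Tagln and 0.27 for Cnn1. The 3 comparisons can share libraries, and whether the effect of the deletion differed between regions was not tested.

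**Figure D5:**
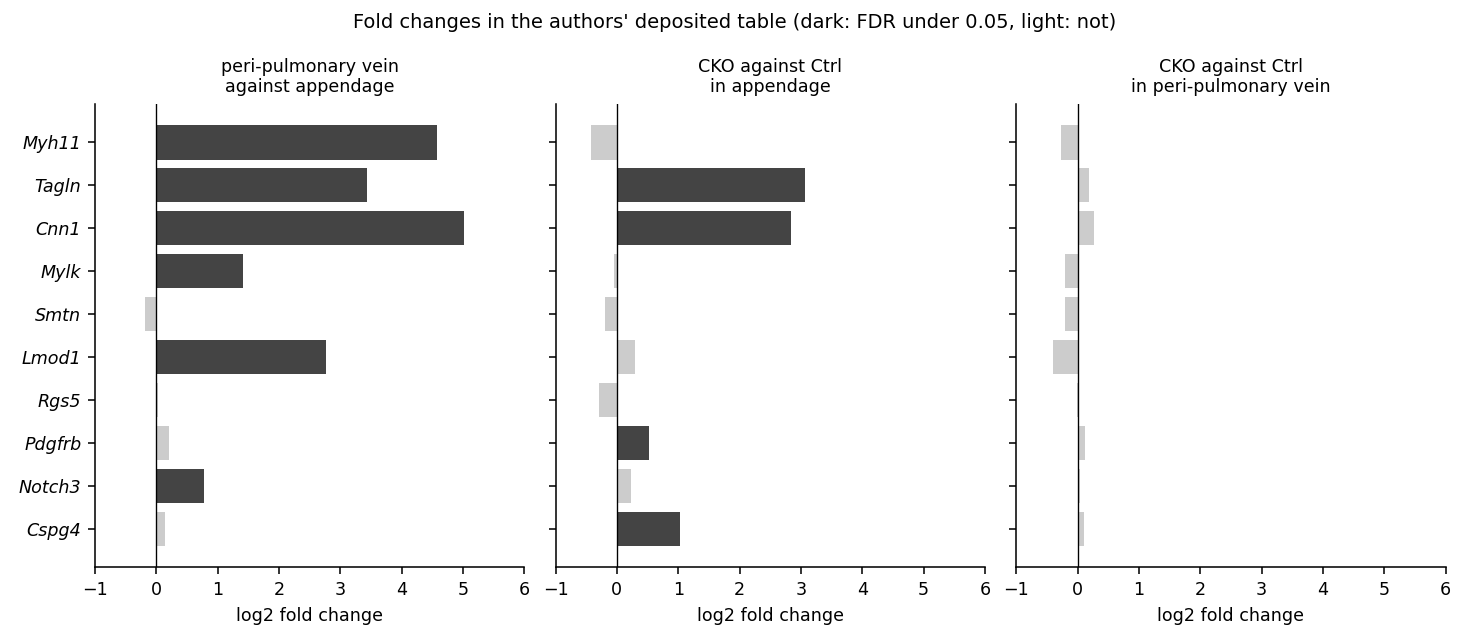
Log2 fold changes of the 10 genes (x axis) in the 3 comparisons of the authors' deposited table; dark bars have a false discovery rate under 0.05. Cnn1, Myh11, Tagln, Lmod1, Mylk and Notch3 are dark for region, Tagln, Cnn1, Pdgfrb and Cspg4 are dark for the deletion in the appendage, and no bar is dark for the deletion at the veins.

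Around these genes, the wider smooth muscle contractile apparatus held 3 of 26 tested genes that rose in CKO and 0 that fell, where 1.54% of all tested genes rose. Hspb6, a small heat shock protein that is a target of cyclic nucleotide kinases in muscle, rose from 106 ± 16.8 to 247 ± 40.5 CPM, a log2 fold change of 1.22 (edgeR adjusted p = 0.00220). Des, the intermediate filament protein desmin, rose from 914 ± 82.8 to 1653 ± 327 CPM (0.85, edgeR adjusted p = 0.0157). Myl6, the essential light chain of non-sarcomeric and smooth muscle myosin, rose from 166 ± 9.65 to 259 ± 43.8 CPM (0.65, edgeR adjusted p = 0.0283). Heart muscle expresses Hspb6 and desmin as well, and non-muscle cells Myl6. Without Ctrl 3 and CKO 4 the list held 4 genes that rose, Hspb6, Des, Myl9 and Tpm1, the last 2 named after their values were seen, and Myl6 had an edgeR adjusted p of 0.0592. Leaving out 1 library took away the call of Myl6 for Ctrl 1, Ctrl 2, Ctrl 4, CKO 1 or CKO 6, and that of Des for Ctrl 2 or Ctrl 4, while Hspb6 passed whichever single library was left out. For the deletion at the veins, the authors' deposited table gave false discovery rates of 3.71e-07 for Hspb6, 0.0236 for Myl6 and 0.0662 for Des. Acta2 and Actg2, the smooth muscle actins, named after their values were seen, had log2 fold changes of 0.32 and 0.23 (edgeR adjusted p = 0.586 and 0.909). The median over the list was 0.30, beside -0.03 over all tested genes.

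Of 11 tested genes of serum response factor and myocardin, 0 passed the test; the most abundant, the LIM-domain cofactors Fhl1 and Fhl2, had log2 fold changes of 0.57 and -0.41 (edgeR adjusted p = 0.0910 and 0.355), with DESeq2 giving Fhl1 an adjusted p of 0.0130. Of 17 tested receptor and G protein genes, 2 fell and 0 rose, where 1.26% of all tested genes fell. Rgs2, which restrains signalling from Gq-coupled contractile receptors, fell from 96.9 ± 14.5 to 45.0 ± 13.6 CPM (-1.11, edgeR adjusted p = 0.0155). Gucy1a1, a subunit of the nitric oxide receptor guanylyl cyclase, fell from 169 ± 33.7 to 91.2 ± 15.6 CPM (-0.89, edgeR adjusted p = 0.0155). The call of Rgs2 was lost without Ctrl 1 or Ctrl 4 and that of Gucy1a1 without Ctrl 2 or Ctrl 4. Without Ctrl 3 and CKO 4 together, Rgs2 alone of the list passed (edgeR adjusted p = 0.0471), with 0.0527 for Gucy1a1. For the deletion at the veins, the authors' deposited table gave false discovery rates of 5.45e-06 for Rgs2 and 0.000169 for Gucy1a1.

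Among 20 further pericyte genes, 1 fell and 0 rose in CKO, beside 1.26% and 1.54% of all tested genes. Angpt1, the ligand of the endothelial receptor Tie2 that pericytes and heart muscle supply, fell from 183 ± 46.2 to 98.1 ± 21.5 CPM, a log2 fold change of -0.90 (edgeR adjusted p = 0.0307). Its call was lost without Ctrl 1, Ctrl 2, Ctrl 3, CKO 1, CKO 2, CKO 3 or CKO 5, and without Ctrl 3 and CKO 4 together (0.0782). With 1 library left out its log2 fold change ran from -1.06 to -0.76. The authors' deposited table gave it a false discovery rate of 0.000714 for the deletion at the veins. Of 8 genes of platelet-derived growth factor ligands, receptors and coreceptors, 0 passed. The most abundant were Pdgfra, the sister receptor on fibroblasts, at a log2 fold change of -0.11 (edgeR adjusted p = 0.725) and the coreceptor Nrp1 at 0.48 (edgeR adjusted p = 0.0631), which DESeq2 called with 0.00266 and edgeR with 0.0411 without CKO 3. Of 13 genes of Notch ligands, receptors and targets, 0 passed, with Notch1 at 0.02 and Notch2 at -0.03 (edgeR adjusted p = 0.936 and 0.906); the direction of Notch1 flipped under scaling by library size alone. The medians of the pericyte, growth factor and Notch lists were -0.02, 0.26 and 0.02.

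The same lists were read in the authors' deposited table. For the deletion in the appendage, that of the contractile apparatus had 14 of 24 genes called higher and 0 lower. Over all genes, 16.8% were called higher and 17.9% lower. The called genes included Hspb6, Des and Myl6, which are not confined to smooth muscle, while Itga8 and Aoc3 were not called. Of the contractile genes described first, Tagln and Cnn1 were called there, and Myh11, Mylk, Smtn and Lmod1 were not. In the authors' deposited table that list had 8 genes higher and 2 lower at the veins than in the appendage, beside 8.19% and 4.06% of all genes. Acta2 was 8.86-fold higher at the veins and 2.66-fold higher in appendage CKO in the authors' deposited table. Of 19 other pericyte genes in the authors' deposited table, 4 were higher and 4 lower in appendage CKO, and 4 higher and 2 lower at the veins. Of 8 growth factor genes in the authors' deposited table, 5 were higher and 1 lower in appendage CKO, and of 12 Notch genes 2 were higher and 2 lower. The shares over all genes, 16.8% higher and 17.9% lower in appendage CKO and 8.19% and 4.06% at the veins, stand beside these counts too. In appendage CKO the short pericyte and Notch lists had calls in both directions, as all genes did, and no result about them is drawn from this. The wider contractile list had calls in 1 direction there, and the part of smooth muscle in those calls was not tested.

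Promoters were examined for the CArG box because the contractile genes other than Smtn varied together. RefSeq promoters on GRCm38.p6, from 250 bases before to 50 bases after the start site, were matched for 7 of the 10 genes: Cnn1, Mylk, Smtn, Lmod1, Rgs5, Notch3 and Cspg4. Myh11, Tagln and Pdgfrb had no entry. Of the contractile genes that varied together, only Cnn1, Mylk and Lmod1 thus had a window, and nothing is said here of the others. The full CArG box, a palindrome and so the same on both strands, was in 0 of these 7 windows, where 1.63% of 32851 promoters hold it. A word that differs from it by at most 1 letter was in those of Lmod1 and Cspg4, where 21.1% of promoters hold such a word. Among 22 matched genes of the wider contractile list, 4 hold the full box in any of their windows. This counts genes, some with more than 1 window, while the 1.63% counts promoters. Lmod1 is shown because its window has 2 separate near matches, which start 189 and 164 bases before the start site and are in capitals, on the plus strand of chr1:135324563-135324812, 5′ to 3′.
Lmod1: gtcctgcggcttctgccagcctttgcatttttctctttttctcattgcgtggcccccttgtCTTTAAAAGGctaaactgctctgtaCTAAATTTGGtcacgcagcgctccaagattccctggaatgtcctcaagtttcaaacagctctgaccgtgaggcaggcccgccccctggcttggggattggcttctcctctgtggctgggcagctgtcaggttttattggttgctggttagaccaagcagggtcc
A match here describes letters only, and the lack of one concerns only this window.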

How the data were processed

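RNA of 10 peri-pulmonary vein samples was depleted of ribosomal RNA per the labels' protocols, although the labels name polyA RNA as the molecule. Per the submitters' processing notes, the authors used TopHat2 2.1.1 on mm10, StringTie 1.3.3, edgeR 3.18.1 and limma 3.32.10. Per the file headers, StringTie used Ensembl release 94 without new transcripts and with a stranded setting. The deposited gene table holds expected counts, estimated from coverage times length over 50-base reads, so they are not raw read numbers. 10 further columns, of appendage libraries, were not used here. The deposited transcript files give coverage and TPM. The authors' deposited table gives log2 fold changes, and p-values with false discovery rates, whose filter and model are not given in the sources used here; its fold changes for the veins differed from those computed here by a median of 0.0179 over 13581 genes.

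Counts were tested with edgeR 4.0.16 in R 4.3.3 (filterByExpr, TMM, quasi-likelihood F test, Benjamini-Hochberg, genotype as the only term), after tests on simulated data. TMM factors ran from 0.951 to 1.05. Alternatives were DESeq2 1.42.0, other scalings and filters, leaving out libraries, Xist terms and a replicate block. Same-numbered Ctrl and CKO libraries had correlations of 0.0313, 0.0876, -0.319 and 0.0894, so the numbers were not taken to pair animals. Transcript shares were compared by exact two-sided permutation over 210 relabellings. Nothing in the labels ties samples to litters or batches, and p-values measure the spread between these samples.

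The 10 genes, the 7 pathway lists and the 11 marker lists were chosen with earlier results of these data known. 1 of the pathway lists is not reported here. Named genes were the 10, up to 4 called genes of each pathway list by adjusted p (or the 2 most abundant where none was called), and the 6 genes closest in profile to each group of the 10. The symbol row with most counts was used. A share that 1 transcript holds is an estimate where transcripts overlap.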

Additional observations from a re-analysis of the deposited data

Results flagged for a closer look

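Among 46 groups of 4 or 6 libraries tested for a library far from the rest, 4 were picked out, and chance picks about 1 in 20. Cnn1 stood at 88.5 CPM in CKO 4, where the next CKO library had 33.2 CPM. Mylk stood at 123 CPM in Ctrl 3 beside 58.0 CPM in the next control, and at 115 CPM in CKO 4 beside 63.3 CPM in the next CKO library. These 3 fall in the libraries with summed airway epithelium markers of 4220 and 6951 CPM, whose part in them was not tested. Notch3 stood at 65.6 CPM in Ctrl 2, where the next control had 50.9 CPM.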

How the results depend on the processing

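The 10 genes were called 0 times in each of 19 alternatives, and of their 190 fold changes under these 173 kept sign and side of the threshold and 17 changed sign, all of them uncalled. For the transcripts of these genes, 0 calls were made in each of 14 settings. In the main setting, with shares of at least 5%, and with libraries left out, a single transcript could reach only 0.0619 to 0.25. A lone transcript could not pass in those settings, so their 0 calls say little. With coverage times length in place of TPM, where a single transcript could reach 0.0476, the smallest adjusted p (exact permutation) was 0.119. Over all genes the count of 497 called by edgeR came to 1132 with DESeq2, to 272 within the libraries of high Xist, to 3 within those of low Xist, and to between 190 and 607 when 1 library was left out (lowest without Ctrl 2). No pairing of animals was found, and the fit with the replicate block called 37 genes and 0 of the 10. Under scaling by library size alone the log2 fold change was -0.050 for Rgs5, -0.011 for Notch3 and -0.042 for Notch1. Without the filter on low counts it was 0.013 for Notch2, and with the block 0.032 for Notch2. Without Ctrl 3 and CKO 4 it was 0.033 for Pdgfra. Within high Xist it was 0.067 for Myh11, 0.25 for Lmod1, -0.060 for Rgs5 and 0.035 for Notch2, and within low Xist -0.025 for Tagln and -0.12 for Notch1. Leaving out 1 library gave ranges of -0.62 to 0.31 for Myh11, -0.0028 to 0.69 for Tagln, -0.21 to 0.77 for Cnn1, -0.48 to 0.26 for Mylk, -0.65 to 0.096 for Lmod1, -0.062 to 0.094 for Rgs5, -0.040 to 0.17 for Notch3, -0.014 to 0.27 for Cspg4, -0.050 to 0.068 for Notch1 and -0.077 to 0.0090 for Notch2. For these the cause was not tested; the fits within a set have fewer samples. Rgs5 held 38.9% of the level of the 10 genes by CPM per kilobase.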
